A study of Mus musculus with 14 samples.

Results

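The 43 genes described here encode proteins of ribosome biogenesis and of the nucleolus, and were chosen by name, with earlier results of these data known. Mouse T helper cells were read on Affymetrix arrays of 45101 probe sets, which name 18194 genes. Of the 43 genes, 42 have a probe set that is annotated to that gene alone, and these 42 have 89 such probe sets in all. The probe set of Mrto4, a large subunit assembly factor, is shared with copies of the gene and was not read. Each gene is represented by its probe set of highest mean signal over the 14 arrays.

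The cells were Th1 and Th2 cells, helper T cells known for interferon gamma and for interleukin 4, that had been polarised in culture before total RNA was taken. The series asks what inhibition of Trpm4, a calcium-activated cation channel, does to their transcripts. Cells of each type were left untreated, given siRNA against Thy1 (a T cell surface protein, the control here) or against Trpm4, or infected with a retrovirus, empty (vector) or with dominant negative (DN) Trpm4. The retrovirus arrays carry a stimulation time of 4 h or 12 h, the untreated and siRNA arrays none. The labels used here do not name the stimulus, the mouse strain, the age of the mice, the promoter of the retrovirus or whether animals were pooled. Each of the 14 conditions is 1 array, so there are no replicates. Matched pairs of arrays stand in for them, and the p-values measure only the spread between the arrays of each fit, which may be technical. For siRNA against untreated and retrovirus against siRNA, the fit took the mean of each cell type and array set and estimated 1 spread over all 4 sets, 3′ biased retrovirus arrays (described below) included. Its standard errors are thus not those of the 2 differences printed beside them.

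As background, ribosomes are built in the nucleolus. RNA polymerase I transcribes the long precursor of the mature ribosomal RNAs, small nucleolar RNA-protein particles (snoRNPs) guide its chemical modification, and assembly factors fold, cut and carry the small and the large subunit towards the cytoplasm. T cells that are activated to grow and divide are known to raise this machinery, and the transcription factor Myc is a known activator of many of its genes through the E-box CACGTG.

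Promoters are shown for 3 of the genes that hold an E-box and for Nop58, the gene with the largest rise in the siRNA arrays, which holds none. These 4 were chosen after the expression values were seen. Promoter windows of 300 bases, from 250 before to 50 after the annotated start, came from RefSeq (GRCm38.p6) for 38 of the 43 genes. The search was for CACGTG, which reads the same on both strands, and 6 of the 38 promoters (15.8%) held it. They were those of Mybbp1a, Wdr43, Imp4, Tsr1, Nop2 and Pes1. Of 27025 genes with a window, 8.09% held it, and of 79 other biogenesis factors 17 (21.5%). A match is a description of these letters and not a site of binding. Capitals mark CACGTG, whose first base lies at position -60 from the start in Nop2, 3 in Pes1 and 41 in Mybbp1a. Nop2 is an RNA methyltransferase of the large subunit, Pes1 a large subunit assembly factor, Mybbp1a a nucleolar regulator of rRNA transcription and Nop58 a core protein of the box C/D snoRNPs.
Nop2, chr6:125131633-125131932, + strand: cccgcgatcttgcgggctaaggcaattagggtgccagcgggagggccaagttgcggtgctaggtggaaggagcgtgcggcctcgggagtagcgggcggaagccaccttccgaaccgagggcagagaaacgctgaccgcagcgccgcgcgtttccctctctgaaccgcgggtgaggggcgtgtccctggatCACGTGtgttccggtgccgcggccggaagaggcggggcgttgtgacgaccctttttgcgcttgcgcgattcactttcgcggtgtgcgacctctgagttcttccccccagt
Pes1, chr11:3963725-3964024, + strand: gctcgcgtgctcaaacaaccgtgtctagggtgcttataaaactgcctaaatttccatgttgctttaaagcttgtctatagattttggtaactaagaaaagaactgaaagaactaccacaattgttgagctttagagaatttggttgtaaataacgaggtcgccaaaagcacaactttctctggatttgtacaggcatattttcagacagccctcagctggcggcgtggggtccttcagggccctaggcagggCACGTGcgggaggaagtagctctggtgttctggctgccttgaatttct
Mybbp1a, chr11:72441077-72441376, + strand: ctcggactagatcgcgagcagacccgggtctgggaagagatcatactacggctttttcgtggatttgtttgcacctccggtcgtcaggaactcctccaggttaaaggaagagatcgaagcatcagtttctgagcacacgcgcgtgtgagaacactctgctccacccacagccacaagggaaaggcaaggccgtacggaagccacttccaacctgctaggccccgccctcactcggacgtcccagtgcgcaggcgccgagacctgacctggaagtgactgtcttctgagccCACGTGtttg
Nop58, chr1:59684756-59685055, + strand: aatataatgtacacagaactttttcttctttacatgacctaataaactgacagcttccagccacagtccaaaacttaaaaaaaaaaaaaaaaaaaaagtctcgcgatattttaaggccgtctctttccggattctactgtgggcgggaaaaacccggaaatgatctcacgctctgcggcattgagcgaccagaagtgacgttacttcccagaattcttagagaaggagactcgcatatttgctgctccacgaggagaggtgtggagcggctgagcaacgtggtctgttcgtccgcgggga

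The arrays fell into 2 kinds by the 3′ against the 5′ signal of control probe sets, for a reason that is not known here. On 6 of them, both 4 h retrovirus pairs and the 12 h pair of Th2 cells, the control probe sets for Gapdh gave a 3′ signal 5.43 to 5.91 above the 5′ signal on the log2 scale, and those for Actb 3.96 to 4.85. On the other 8 arrays these values were -0.25 to 0.04 and 0.05 to 0.47. Comparisons that cross the kinds cannot be told apart from this 3′ bias. They are 12 h against 4 h in Th1, Th1 against Th2 at 12 h, and retrovirus against siRNA at 4 h in both cell types and at 12 h in Th2. The targeted genes were read on 1 probe set each. Thy1 was 11.12 with Thy1 siRNA against 12.46 with Trpm4 siRNA in Th1, and 9.61 against 11.71 in Th2. Trpm4 was 6.23 with its siRNA against 6.95 with Thy1 siRNA in Th1, and 6.62 against 7.25 in Th2. In the arrays labelled DN Trpm4 it was 9.21 against 6.62 in the vector array of Th1 at 12 h, but 6.95 against 6.35 in Th1 at 4 h, 7.06 against 7.27 in Th2 at 12 h and 7.0 against 6.9 in Th2 at 4 h. It is not known here if the construct holds the stretch that is read.

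Cell type markers matched the labels in part. Of the T cell markers, Cd3e lay between 9.29 and 11.48, Cd28 between 10.32 and 11.14 and Cd4 between 6.74 and 9.5. Ifng was 10.71 in untreated Th1 cells and 5.48 in untreated Th2 cells, and 13.23 to 13.41 against 9.48 to 10.70 in the treated arrays. Il4 was 4.25 to 5.40 in all 7 Th1 arrays and 8.05 to 12.82 in the 7 Th2 arrays, with the untreated Th2 array lowest. Tbx21, the Th1 regulator, was 9.45 to 10.43 in the treated Th2 arrays, within its range of 8.73 to 11.01 in Th1, so it did not separate the treated cells. In Th1 minus Th2 all 5 Th2 markers were lower and 2 of 4 Th1 markers higher. The B cell markers ranged from 4.57 to 7.20 over all arrays, those of macrophages and dendritic cells from 4.58 to 7.28, the erythroid ones from 4.13 to 5.30 and the fibroblast ones from 4.12 to 6.53. Of the CD8 and NK markers, Eomes was 4.66 in untreated Th1 and 4.99 in untreated Th2 cells, 7.06 and 7.03 in the Th1 siRNA arrays, 9.46 and 9.58 in the Th2 siRNA arrays and 5.55 to 6.51 with retrovirus. Cd8a went the other way, with 8.55 and 6.89 in untreated Th1 and Th2, 6.42 to 7.38 with siRNA and 4.78 to 5.40 with retrovirus. Cd8b1 was 5.41 and 6.65 untreated, 5.86 to 6.68 with siRNA and 4.21 to 5.12 with retrovirus. Ncr1 was 7.23 in untreated Th1 and 4.23 to 5.17 on the other 13 arrays.

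All values are on a log2 scale. The deposited signals were quantile normalised over the 14 arrays, 16 was added and log2 was taken, so a difference of 1 is close to a doubling at high signal and understates it at low signal. A difference passed when limma's Benjamini-Hochberg adjusted p, over all 29467 probe sets above the median of the array on at least 2 arrays, was under 0.05. All 42 genes were tested and all 42 lay above the median of every array.

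The genes as a group were lowest in the untreated cells. Their median was 8.45 in untreated Th1 cells and 8.16 in untreated Th2 cells. In the siRNA arrays it was 9.74 (Thy1) and 9.70 (Trpm4) in Th1 and 9.10 and 9.03 in Th2. At 4 h of stimulation with retrovirus it was 9.46 with vector and 9.43 with DN Trpm4 in Th1, and 9.12 and 8.82 in Th2. At 12 h it was 9.98 and 9.96 in Th1, and 9.40 and 9.62 in Th2. Each Th1 median lay above the Th2 median of the same treatment, with 8.45 and 8.16 the closest. The median of all tested probe sets was 6.33 to 6.36 on every array, as normalisation makes it.

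**Figure D1:**
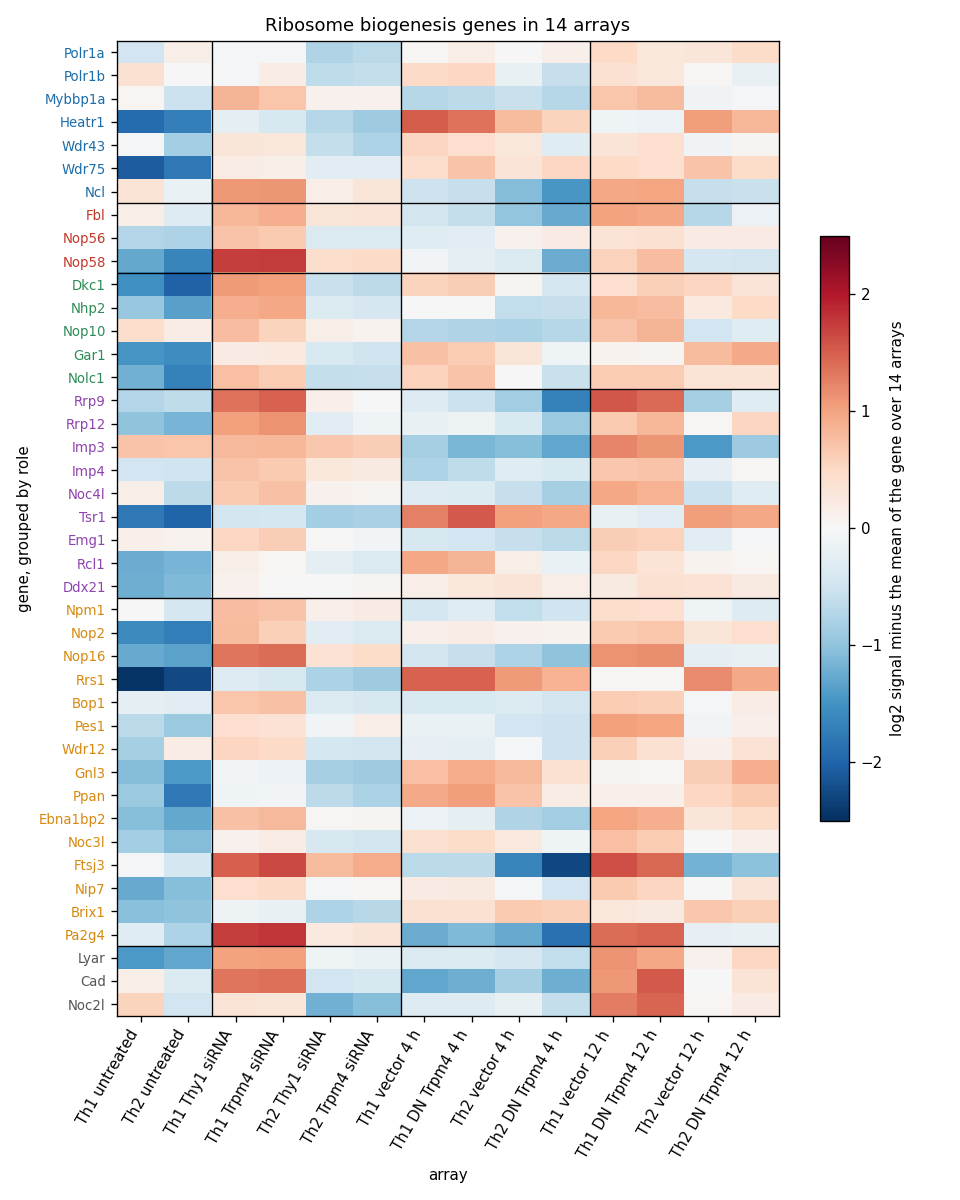
Heatmap of 42 genes (rows, grouped by role with names coloured by role) in 14 arrays (columns); colour is the log2 signal minus the mean of that gene over the 14 arrays. The untreated arrays are blue for most genes, the Th1 siRNA and Th1 12 h arrays red, and Tsr1, Rrs1 and Heatr1 are highest in the 3′ biased retrovirus arrays.

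The siRNA arrays were higher than the untreated arrays for most of these genes. The question is one of background, since the labels give neither the time nor the stimulation of these cells. Of the 42 genes, 14 rose and 0 fell in limma, where 6.13% of all probe sets rose. The median difference was 0.99, against 0.04 over all probe sets, and 39 of 42 were above 0 (all probe sets 15421 of 29467). In Th1 the median was 1.30 and in Th2 0.81; the difference between the cell types was not tested. By Gapdh and Actb none of these 6 arrays is 3′ biased. By Tfrc the 3′ signal lay above the 5′ signal by 2.91 and 2.10 in the untreated arrays of Th1 and Th2 and by 1.47 to 2.01 in the siRNA arrays. The 18S control signals were 8.28 to 147.08 in the untreated arrays and 296.12 to 1049.97 in the siRNA arrays. Cytokine genes differed between the same arrays. Il4 was 8.05 in untreated Th2 cells and 12.79 and 12.82 in the siRNA arrays, and Ifng was 10.71 in untreated Th1 cells and 13.36 in both siRNA arrays. Of the CD8 and NK markers Eomes was higher by 3.46 (limma adjusted p = 0.0217), with Cd8b1 at 0.40 and Cd8a at -0.77, neither of which passed, and the 3 T cell markers were lower in the siRNA arrays by a median of -0.82. The part of these differences in the result was not tested.

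In the box C/D snoRNPs, which guide 2′-O-methylation of rRNA, Nop58 was 8.17 in untreated Th1 cells against 11.18 and 11.19 in the siRNA arrays, and 7.79 in untreated Th2 cells against 9.88 and 9.93. This was a rise of 2.56 ± 0.31 (SE; 2 cell types, both higher; limma adjusted p = 0.00763), or 5.91-fold. Nop58 and the other genes given here for the size of their rise were picked after their values were seen. The methyltransferase Fbl (fibrillarin) was 10.34 untreated against 11.02 and 11.09 in Th1, and 9.86 against 10.49 and 10.51 in Th2. Its difference of 0.68 ± 0.32 did not pass (adjusted p = 0.213). Nop56, another core protein, was at 0.91 ± 0.37 and did not pass either (adjusted p = 0.161).

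In the box H/ACA snoRNPs, which guide pseudouridylation and share proteins with telomerase, 3 of 5 genes rose. Dkc1 (dyskerin), the pseudouridine synthase, was 8.12 untreated against 10.73 and 10.68 in Th1, and 7.63 against 9.1 and 9.0 in Th2. It rose by 2.0 ± 0.39 (limma adjusted p = 0.0223). The chaperone Nolc1 rose by 1.5 and the core protein Nhp2 by 1.44. The other probe sets of Nolc1 were at 0.97 and 0.51 (adjusted p = 0.241 and 0.462). That of Nhp2 was at 1.45 (adjusted p = 0.307), and none of these passed. Those of Dkc1 were at 2.60 and 2.76 (adjusted p = 0.0111 and 0.058). Gar1 was at 1.40 (adjusted p = 0.0612) and Nop10 at 0.09, and neither passed.

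For transcription of rRNA the picture was uneven. Wdr75, a factor of the early precursor complex, was 7.47 untreated against 9.74 and 9.71 in Th1, and 7.77 against 9.29 and 9.30 in Th2, and rose by 1.89 ± 0.29 (limma adjusted p = 0.0123). Its second probe set, of lower signal, was at -0.46 (adjusted p = 0.525). The catalytic subunits of RNA polymerase I did not pass on their chosen probe sets. Polr1a was 7.53 untreated against 7.99 and 7.97 in Th1, but 8.15 against 7.25 and 7.33 in Th2. Polr1b was 8.58 against 8.14 and 8.38 in Th1, and 8.18 against 7.55 and 7.60 in Th2. The difference was -0.20 for Polr1a (adjusted p = 0.754) and -0.47 for Polr1b (adjusted p = 0.307). The probe sets of Polr1a disagreed: 1 of lower signal rose by 1.14 (adjusted p = 0.031), and the other two were at 1.25 (adjusted p = 0.135) and -0.35 (adjusted p = 0.548). Ncl (nucleolin), an abundant RNA-binding protein of the nucleolus, was 11.56 against 12.30 and 12.32 in Th1, and 11.04 against 11.39 and 11.52 in Th2. Within each cell type both siRNA values lay above the untreated one, but its difference of 0.58 ± 0.32 did not pass (adjusted p = 0.284). Of its 4 other tested probe sets, 1 of lower signal rose by 2.22 (3.48 in Th1, 0.97 in Th2, adjusted p = 0.047), and those at 0.46, 0.53 and 0.65 did not pass.

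Large subunit assembly held 6 of the 14 rises. Nop16 was 7.13 untreated against 9.74 and 9.79 in Th1, and 7.06 against 8.77 and 8.86 in Th2, a rise of 2.19 ± 0.36 (limma adjusted p = 0.0145). Nop2 was 7.44 against 9.82 and 9.63 in Th1, and 7.31 against 8.78 and 8.67 in Th2. It rose by 1.85. Rrs1, which brings the 5S particle into the large subunit, rose by 1.74, Ebna1bp2 by 1.58, Pa2g4 by 1.56 and Nip7 by 1.39. Npm1 (nucleophosmin), a histone and ribosome chaperone, was 11.81 against 12.58 and 12.52 in Th1, and 11.39 against 11.93 and 12.01 in Th2, and its difference of 0.66 did not pass (adjusted p = 0.155). For Ebna1bp2 a second probe set, of lower signal, went the other way by -2.27 (adjusted p = 0.0063), so its rise rests on the probe set that was chosen. The second probe set of Nip7, also of lower signal, was at -0.11 (adjusted p = 0.857). The other tested probe sets of Pa2g4 were at 1.26, 1.17, 0.90 and 0.44, and none passed (adjusted p = 0.0719 to 0.603). The call of Pa2g4 (adjusted p = 0.0434) was lost in 6 of 11 alternatives. The second probe set of Nop16 was at 0.64 (adjusted p = 0.235), while that of Rrs1 rose by 1.18 (adjusted p = 0.0493).

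Among small subunit factors Rrp12, which helps export the particle, rose by 1.52 ± 0.33 and the RNA helicase Ddx21 by 1.19 ± 0.25 (limma adjusted p = 0.0298 and 0.0269). Imp3, a protein of the U3 particle, was 9.12 untreated against 9.23 and 9.24 in Th1, and 9.11 against 9.09 and 9.03 in Th2, a difference of 0.03 (adjusted p = 0.98). Lyar, a nucleolar protein of growing cells, rose by 1.81 ± 0.36 (limma adjusted p = 0.0234). Cad, the enzyme that starts pyrimidine synthesis, was 8.22 against 9.40 and 9.44 in Th1 but 7.73 against 7.58 and 7.66 in Th2. The call on these genes depends on the scale and on other settings, with 10 to 30 of 42 called over 11 alternatives. With deposited values and no normalisation 30 of 42 rose, where 15.5% of all probe sets passed in either direction. The median of all probe sets was then 0.28 and that of these genes 1.45. Of the 29 genes with several tested probe sets, 22 had all of them on the same side of 0.

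**Figure D2:**
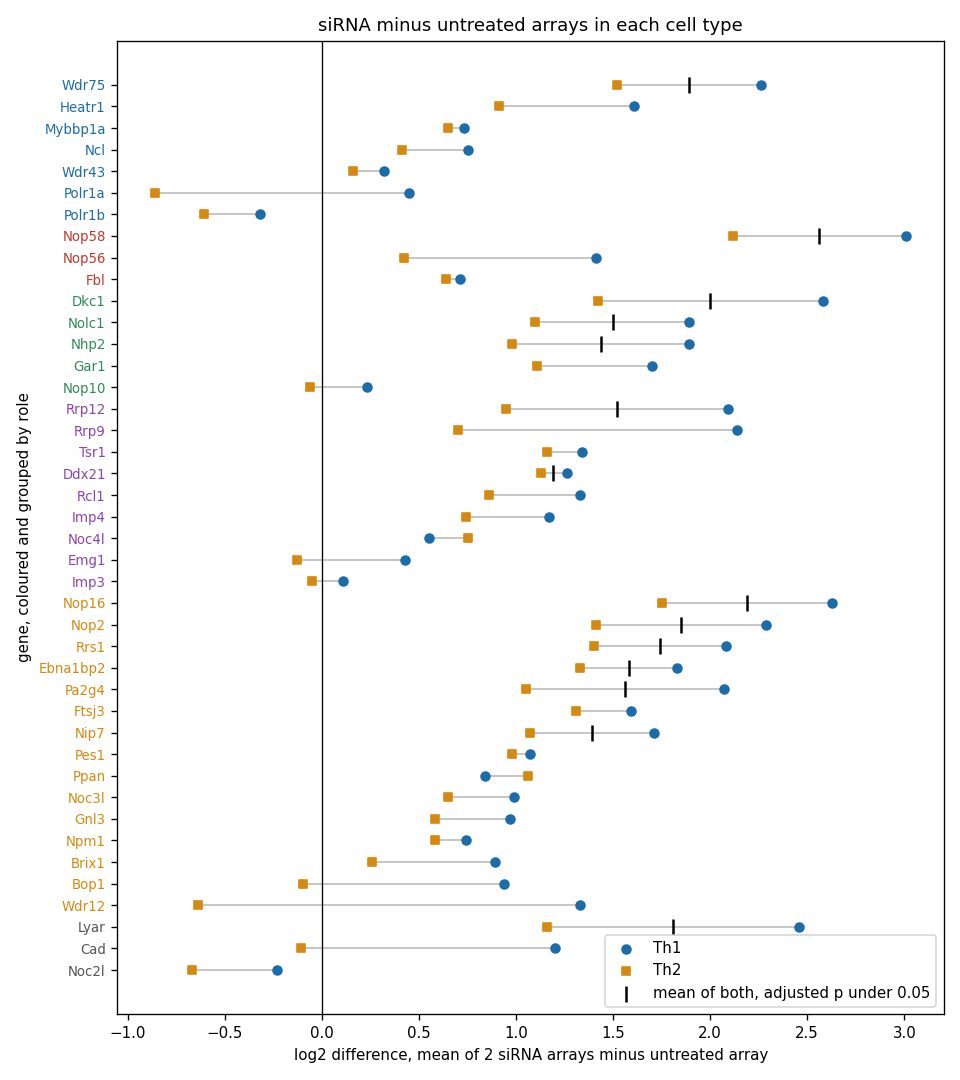
Difference on the log2 scale between the mean of the 2 siRNA arrays and the untreated array in Th1 (circles) and Th2 (squares), for 42 genes grouped and coloured by role; black ticks mark the mean of both cell types for the 14 genes that passed. Nop58 is farthest to the right at 3.01 in Th1 and 2.12 in Th2, and Polr1b and Noc2l lie below 0 in both.

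Th1 cells had more of these transcripts than Th2 cells. Over the 7 matched pairs 17 of 42 genes were higher in Th1 and 0 lower in limma, where 3.65% of all probe sets were higher. The median difference was 0.50, against 0.01 over all probe sets, and 38 of 42 genes were above 0. The gap was present within each pair, with a median of 0.21 in untreated cells, 0.70 and 0.73 with Thy1 and Trpm4 siRNA, 0.24 and 0.55 at 4 h with vector and DN Trpm4, and 0.63 and 0.44 at 12 h. In the siRNA pairs 42 and 41 of 42 genes were higher in Th1, in the untreated pair 31. Pairs of one treatment set are not independent, since within a set the arrays of 1 cell type correlated at 0.987 to 0.996. At 12 h the Th2 arrays carry the 3′ bias and the Th1 arrays do not.

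Ncl was higher in Th1 in 7 of 7 pairs. The Th1 values were 11.56 untreated, 12.30 and 12.32 with siRNA, 10.69 and 10.63 at 4 h and 12.18 and 12.21 at 12 h. The matching Th2 values were 11.04, 11.39 and 11.52, 10.13 and 9.75, and 10.63 and 10.65. The difference was 0.97 ± 0.16 (SE, limma adjusted p = 0.00613), with 0.52 to 0.91 in the 5 pairs of one kind of array and 1.55 and 1.56 at 12 h. Polr1b was higher in 7 of 7 pairs too, by 0.62 ± 0.12 (limma adjusted p = 0.0145). Its Th1 values were 8.58, 8.14, 8.38, 8.67, 8.70, 8.58 and 8.47 in the order untreated, Thy1 siRNA, Trpm4 siRNA, vector and DN at 4 h, vector and DN at 12 h. In the same order Th2 gave 8.18, 7.55, 7.60, 8.0, 7.61, 8.23 and 8.0, so the cell types overlapped through 1 array of Th1, that with Thy1 siRNA. Polr1a differed by 0.12 (adjusted p = 0.691).

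Among snoRNP proteins Nop58 was higher in Th1 by 0.93 ± 0.16 (limma adjusted p = 0.00716) and Fbl by 0.80 ± 0.17 (adjusted p = 0.0174), both in 7 of 7 pairs. The pair differences of Fbl were 0.48 untreated, 0.53 and 0.58 with siRNA, 0.54 and 0.66 at 4 h and 1.72 and 1.10 at 12 h. Nhp2 (0.73) and Nolc1 (0.78) passed, and Dkc1 (0.79, adjusted p = 0.0556) did not.

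The largest differences were in assembly factors, and part of their size came from 12 h. Ftsj3, an rRNA methyltransferase of the large subunit, differed by 1.39 ± 0.29 (limma adjusted p = 0.0186, 7 of 7 pairs). Its pair differences were 0.42 untreated, 0.69 and 0.71 with siRNA, 0.98 and 1.63 at 4 h, and 2.80 and 2.46 at 12 h. Rrp9, a U3 snoRNP protein, differed by 1.2 ± 0.26 (adjusted p = 0.019, 6 of 7 pairs), with -0.09 untreated, 1.24 and 1.46 with siRNA and 2.39 and 1.70 at 12 h. Pa2g4, a growth-regulated factor that binds the large subunit, differed by 1.06 ± 0.22 (adjusted p = 0.0158, 7 of 7 pairs), with 0.46 untreated, 1.49 and 1.46 with siRNA and 0.01 and 0.76 at 4 h. Its probe sets disagreed, over a range of 1.18, the widest of the 29 genes with several tested probe sets. Of these 29 genes, 21 had all probe sets on the same side of 0. Npm1 was higher by 0.46 ± 0.12 (adjusted p = 0.0373).

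At the other end were Tsr1 (-0.10), Rrs1 (-0.04), Brix1 (-0.02) and Ddx21 (-0.02), none of which passed. Tsr1, Rrs1 and Brix1 were higher in Th1 by 0.40, 0.47 and 0.65 with Thy1 siRNA and lower in the 12 h pairs, where Tsr1 was at -1.23 and -1.24, Rrs1 at -1.17 and -0.92 and Brix1 at -0.38 and -0.37. In the 4 h pairs alone, an alternative chosen after seeing the data, Rrs1 was higher in Th1 by 0.51 (limma adjusted p = 0.0207). In that fit 17 genes were higher and 1 lower, Nop56 (-0.44, adjusted p = 0.038), which was at 0.22 over the 7 pairs. That fit rests on the vector and DN Trpm4 pairs only, and the share of all probe sets that passed in it is not given here. Cad was at 0.84 (adjusted p = 0.0863), 1.83 and 1.78 with siRNA and -0.47 and -0.02 at 4 h.

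The count of 17 changed with the pairing and with the pairs that were used. Without the pair as a block 0 genes passed, without the Thy1 siRNA pair 10, without the Trpm4 siRNA pair 8, without the DN Trpm4 pair at 12 h 8, without both siRNA pairs 4, and with only the untreated and siRNA pairs 0. With the 5 pairs of one kind of array 10 passed, and in each of these fits 0 were lower in Th1. Of all probe sets, 1.08% to 7.47% passed in these fits, in either direction.

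**Figure D3:**
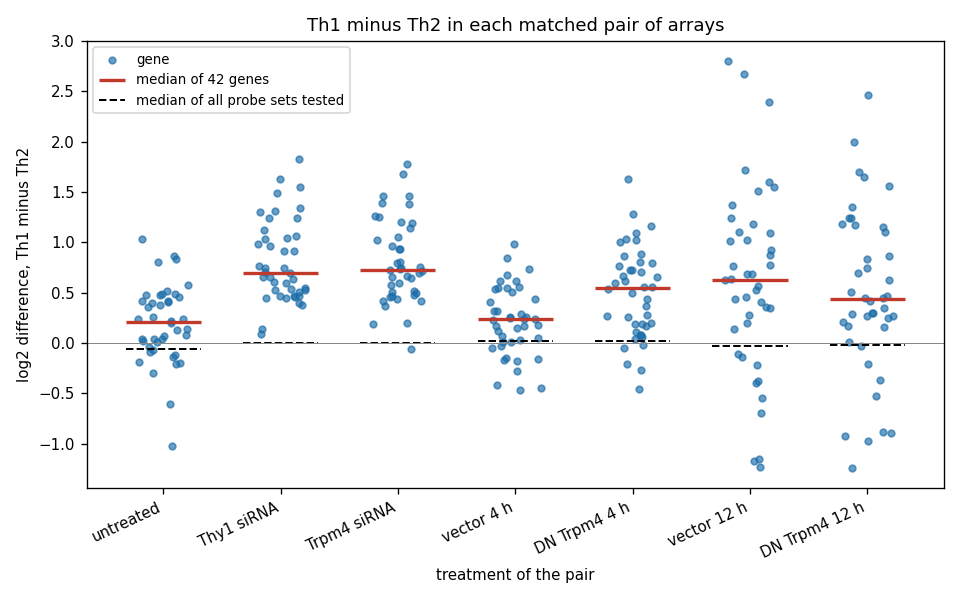
Each point is the Th1 minus Th2 difference of 1 gene on the log2 scale in 1 matched pair of arrays; the solid line is the median of 42 genes and the dashed line that of all probe sets tested. The medians of the genes lie between 0.21 and 0.73 in the 7 pairs, and the spread is widest at 12 h, where the Th2 arrays are 3′ biased and the Th1 arrays are not.

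Between 4 h and 12 h of stimulation a minority of the genes rose in Th2 cells. All 4 arrays are 3′ biased, to unequal degrees, with Actb at 3.96 to 4.85 and Tfrc at 2.13 to 3.09, both highest in the DN Trpm4 array at 4 h. Of the 42 genes, 13 rose and 0 fell in limma, where 4.51% of all probe sets rose. The median difference was 0.40 against 0.01 over all probe sets, and 41 of 42 genes were above 0. It was 0.27 in the vector pair and 0.63 in the DN Trpm4 pair. With pseudocount 1 no probe set passed at all. With deposited values 5 of these genes passed, where 9.08% of all probe sets passed in either direction. Counts with 1 Th2 pair left out are not given. The fit shares its spread with the Th1 pairs, whose times differ in bias, and with 1 Th2 pair left the spread comes from Th1 alone.

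The large subunit factor Pa2g4 was 9.08 and 8.47 at 4 h (vector, DN Trpm4) and 10.13 and 10.14 at 12 h, a rise of 1.36 ± 0.17 (SE; 2 pairs, both higher; limma adjusted p = 0.00359). Of its 5 probe sets, 4 rose, by 0.83 to 1.36. Ebna1bp2 was 8.90 and 8.79 at 4 h and 9.97 and 10.12 at 12 h, and rose by 1.2 (adjusted p = 0.00273), with -0.01 on its second probe set. Cad was 7.24 and 6.85 at 4 h and 8.05 and 8.41 at 12 h, and rose by 1.19 ± 0.20 (adjusted p = 0.00889). With 2 arrays at each time the values of these 3 genes did not overlap. Nor did those of Ncl and of Fbl, given below, and Fbl did not pass. The share of all probe sets without overlap was not counted.

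Box H/ACA proteins rose in 3 of 5 cases, with Nhp2 at 0.97, Gar1 at 0.76 and Dkc1 at 0.61. Ncl was 10.13 and 9.75 at 4 h and 10.63 and 10.65 at 12 h, a rise of 0.70 ± 0.15 (limma adjusted p = 0.0238), and Mybbp1a rose by 0.58. Further rises were Rrp12 (0.93), Ftsj3 (0.86), Lyar (0.83), Nop16 (0.67) and Pes1 (0.53). Fbl was 9.21 and 8.94 at 4 h and 9.48 and 10.05 at 12 h, and its difference of 0.69 did not pass (adjusted p = 0.0631). Npm1 (0.34), Polr1a (0.32) and Polr1b (0.31) did not pass, and Tsr1 was at 0.01 and Noc3l at -0.01.

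In Th1 cells the same contrast crosses the kinds of array, 3′ biased at 4 h and not at 12 h. There 25 genes were higher and 7 lower at 12 h, where 27% of all probe sets were higher and 29.1% lower, and the time cannot be told apart from the bias. The largest values were Pa2g4 (2.60), Cad (2.57), Ftsj3 (2.19) and Imp3 (2.14), and the lowest Tsr1 (-1.62), Heatr1 (-1.56) and Rrs1 (-1.46). In this contrast the gene whose probe sets disagreed most was Nhp2. It was 10.44 on both 4 h arrays and 11.25 and 11.19 at 12 h on its chosen probe set. The other probe set gave 6.38 and 6.34 at 4 h and 10.81 and 10.69 at 12 h. Only 17 of 29 genes with several tested probe sets had them all on the same side of 0.

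Over the 4 pairs of both cell types 3 genes passed, all higher at 12 h, where 0.713% of all probe sets were higher. They were Pa2g4 (1.98 ± 0.30), Ebna1bp2 (1.17 ± 0.13) and Nhp2 (0.88 ± 0.13), each in 4 of 4 pairs (limma adjusted p = 0.0437, 0.0337 and 0.0437). Cad was at 1.88 (adjusted p = 0.0531), Ftsj3 at 1.52 (adjusted p = 0.0674) and Rrp9 at 1.32 (adjusted p = 0.0912). The lowest values were those of Tsr1 (-0.81), Rrs1 (-0.68), Heatr1 (-0.65) and Ppan (-0.36), which came from Th1 alone, where they were -1.62, -1.46, -1.56 and -0.87, against 0.01, 0.10, 0.27 and 0.15 in Th2. With pseudocount 1, and with any 1 pair left out, 0 genes passed.

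**Figure D4:**
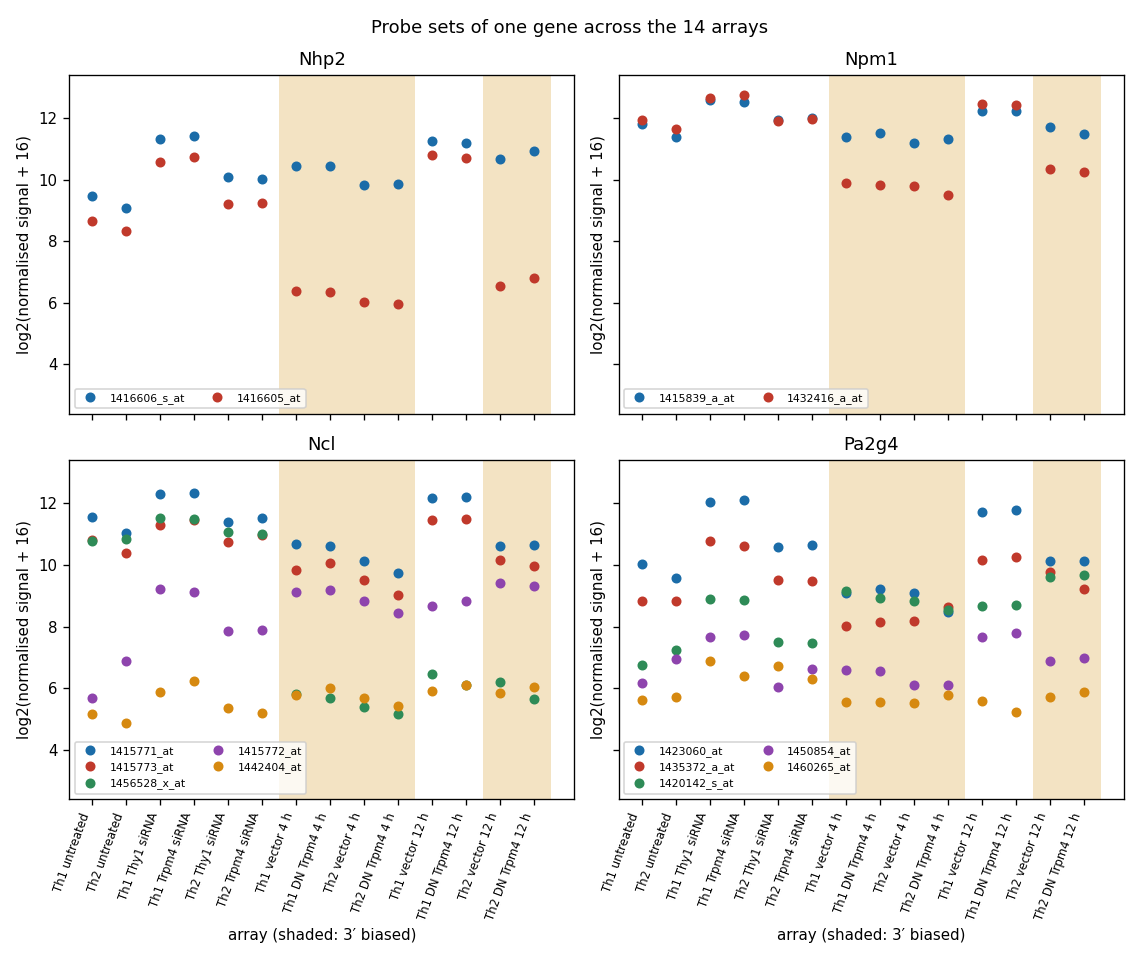
Log2 signal of every tested probe set of Nhp2, Npm1, Ncl and Pa2g4 on the 14 arrays; shading marks the 6 arrays with 3′ bias. One probe set each of Nhp2 and Npm1 drops on the shaded arrays while the other does not drop as far, and 1 probe set of Ncl is near 11 on the untreated and siRNA arrays and at 5.16 to 6.46 on all 8 retrovirus arrays.

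Against the siRNA arrays, which are shared by the comparisons at both times and by the one with untreated cells, the 4 h retrovirus arrays gave 3 genes higher and 9 lower, where 11.1% of all probe sets were higher and 9.68% lower. The arrays at 4 h are biased and the siRNA arrays are not, and the 2 cannot be told apart. Tsr1 was 10.11 and 10.13 in the siRNA arrays of Th1 and 9.72 and 9.76 in those of Th2, against 11.83 and 12.11 in Th1 and 11.60 and 11.55 in Th2 at 4 h (1.84 ± 0.43, limma adjusted p = 0.0292). Rrs1 (1.83) and Heatr1 (1.62) were the other two. Gnl3 (1.21, adjusted p = 0.0584) was next. The lowest were Ftsj3 (-2.53), Pa2g4 (-2.39), Imp3 (-1.81, adjusted p = 0.0565) and Rrp9 (-1.60, adjusted p = 0.0518). Ncl (-1.58), Fbl (-1.40), Cad (-1.60) and Npm1 (-0.92) were lower and passed. The probe sets of Ncl disagreed, over a range of 6.12, the widest of the 29 genes with several tested probe sets. Of these 29 genes, 17 had all probe sets on the same side of 0.

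At 12 h 0 of 42 genes passed against the siRNA arrays in limma, where 6.22% of all probe sets passed. In Th1, the cell type in which neither set of arrays is biased, the median of the genes was 0.07 and 25 of 42 were above 0, so the 12 h and siRNA arrays lay close together. There Ncl was 12.18 and 12.21 at 12 h against 12.30 and 12.32, Fbl 11.20 and 11.15 against 11.02 and 11.09, and Npm1 12.24 and 12.22 against 12.58 and 12.52. The exceptions by size were Nop58 (-1.06) and Noc2l (1.05), both named after their values were seen. In Th2 the median was 0.46, with the bias on the 12 h side. Over both cell types the highest were Noc2l (1.16), Rrs1 (1.15), Tsr1 (1.03) and Heatr1 (0.97), and the lowest Ftsj3 (-1.01), Nop58 (-0.98), Imp3 (-0.73) and Ncl (-0.46). The median of 0.25 turned to -0.14 on deposited values and -0.12 on median-centred ones, which were also the medians of all probe sets there.

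Inhibition of Trpm4 left no difference that passed in these genes. Over 6 matched pairs 0 of 42 genes passed in limma, where 0% of all probe sets did, and 1 gene and 1733 probe sets had an unadjusted p under 0.05. The median difference, inhibited minus control, was -0.02 against 0.00 over all probe sets. It was -0.01 in Th1, -0.03 in Th2, -0.03 for DN Trpm4 and 0.00 for the siRNA. With this number of pairs a missed threshold does not show that the levels were equal.

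Heatr1, a factor of rRNA transcription, was lower in 6 of 6 pairs, by -0.17 ± 0.06 (SE, limma adjusted p = 0.809). Its control values were 9.52 and 9.05 with Thy1 siRNA (Th1, Th2), 11.28 and 10.55 with vector at 4 h and 9.66 and 10.81 at 12 h, against 9.36 and 8.86, 11.12 and 10.32, and 9.62 and 10.59. Its other 2 probe sets gave 0.22 and 0.21, the opposite sign. Rcl1, which cuts within the small subunit precursor, was lower in 6 of 6 pairs too, by -0.15 (adjusted p = 0.837). Nop58 was at -0.15, with -0.89 in the Th2 4 h pair alone. The highest were Cad (0.10), Rrp12 (0.07) and Pes1 (0.05). Ncl, Fbl and Npm1 are among the genes whose inhibited and control arrays lay close: in Th1 with siRNA Ncl was 12.30 and 12.32, Fbl 11.02 and 11.09 and Npm1 12.58 and 12.52 (Thy1, then Trpm4).

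One pair stood apart. In Th2 at 4 h the median of the DN Trpm4 minus vector differences was -0.24 and 6 of 42 genes were above 0, while the other 5 pairs had medians of -0.03 to 0.15. At 12 h in Th2 it was 0.15, with 30 of 42 above 0. The DN Trpm4 array of Th2 at 4 h also had the highest 3′ bias for Actb (4.85, vector 3.96) and for Tfrc (3.09, vector 2.46), and its part in the result was not tested. This array enters the rise with time in the DN pair of Th2 as well.

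**Figure D5:**
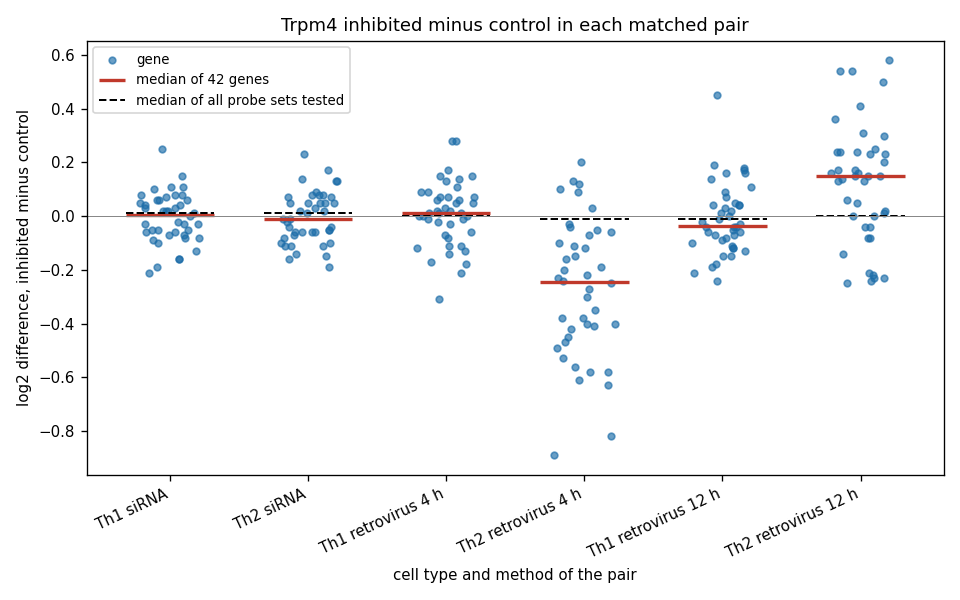
Each point is the inhibited minus control difference of 1 gene on the log2 scale in 1 matched pair; the solid line is the median of 42 genes and the dashed line that of all probe sets tested. The medians lie between -0.03 and 0.15 except in Th2 at 4 h, at -0.24.

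Other factors of ribosome biogenesis were read in a further list of 93 genes. In siRNA minus untreated 19 rose and 1 fell, with a median of 0.68. The largest were Rsl24d1 (2.44) and Gnl3l (2.05) of the large subunit, Pno1 (1.85) and Utp6 (1.83) of the small subunit. The 14 other RNA polymerase I genes had no call, with the subunit Znrd1 at -1.10 (-1.18 in Th1, -1.02 in Th2, adjusted p = 0.0887), the subunit Polr1e at 0.89 (adjusted p = 0.118) and the nucleolar factor Tcof1 at 0.79 (adjusted p = 0.227). In Th1 minus Th2 17 were higher and 0 lower, with a median of 0.32, led by Ddx10 (0.95), Wdr74 (0.93) and Nle1 (0.92). In Th2 at 12 h minus 4 h 8 rose and 1 fell, with a median of 0.29. The rises were led by Pno1 (0.82) and the fall was Nop53 (-0.78).

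Ribosomal protein genes, 33 of 50 with a probe set that was tested, stayed near 0 on this scale. Their median was -0.02 in siRNA minus untreated with 1 rise (Rpl37, 1.56), 0.02 in Th1 minus Th2 with 1 higher (Rpl12, 0.45) and -0.04 in Th2 with time with none. Of the exosome and nuclear RNA decay genes 2 of 14 rose in the siRNA arrays (Mphosph6, 2.13, and Dis3, 1.53), 3 were higher in Th1 and 4 rose in Th2 with time. Nucleotide synthesis genes rose in 5 of 15 cases in the siRNA arrays, with Umps at 2.16 and Ctps at 2.11, and in Th2 with time in 9, with 1 that fell. The purine enzyme Pfas (1.40) and the pyrimidine enzyme Dhodh (1.18) led the latter.

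Myc itself was 8.56 in untreated Th1 cells, 10.51 and 10.42 in the siRNA arrays, 10.23 and 10.24 at 4 h and 10.05 and 10.20 at 12 h. In Th2 it was 7.98 untreated, 8.69 and 8.82 with siRNA, 9.07 and 8.59 at 4 h and 7.95 and 8.19 at 12 h. It was higher in Th1 in 7 of 7 pairs, by 1.56 ± 0.19 (limma adjusted p = 0.00101). In siRNA minus untreated it was at 1.34 ± 0.38 and did not pass (adjusted p = 0.0629). In Th2 it fell from 4 h to 12 h, by 0.76 ± 0.18 on the log2 scale (adjusted p = 0.0364), while 13 of the 42 genes rose. The Myc antagonist Mxd4 fell by 3.28 in the siRNA arrays (adjusted p = 0.00926) and was lower in Th1 than in Th2 (-1.48, adjusted p = 0.0056). It fell in Th2 with time too, by 2.15 (adjusted p = 0.00164). Not all genes of this list went with Mxd4. Mxi1 was 9.95 in untreated Th1 and 9.17 in untreated Th2 cells. It was 9.46 and 9.52 against 8.02 and 8.25 with siRNA. At 4 h it was 8.60 and 8.67 against 7.26 and 7.08, and at 12 h 8.10 and 7.98 against 7.03 and 7.12. Mxd1 was lower in Th1 with siRNA (6.14 and 6.13 against 7.16 and 7.01) but higher at 4 h (8.24 and 8.33 against 6.69 and 6.82). Mxd3 was at 0.92 in siRNA minus untreated (adjusted p = 0.142). Trpm4 inhibition gave 0.00 for Myc (adjusted p = 0.998).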

How the data were processed

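Total RNA of 14 samples, 1 per condition, was labelled with biotin and read on Affymetrix arrays, per the labels. The authors deposited 1 linear intensity per probe set and array, and the sources used here name neither their summary method nor their scaling. Here the intensities were quantile normalised, 16 was added and log2 taken. Probe sets above the array median on at least 2 arrays were kept (29467 of 45101). The annotation gave 34958 probe sets 1 gene, 932 more than 1 and 9211 no gene, and 64 controls were left out of the tests. Symbols were looked up through Entrez identifiers, found for 34754 probe sets, and changed 0 of them.

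Differences were fitted with limma 3.58.1 (lmFit, eBayes) in R 4.3.3, two-sided, with Benjamini-Hochberg adjustment over all probe sets and matched pairs as blocks. Comparisons between sets of arrays used the mean of each cell type and set, with cell type as a block. The fits were run on simulated data with known differences and independent noise. That noise held no 3′ bias and no likeness within pairs or sets, so it does not test those limits. The number of arrays limits the precision.

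The genes, gene lists and comparisons were chosen with earlier results of these data known. The rule for named genes took 1 probe set per gene and Ncl, Fbl, Npm1, Polr1a, Polr1b, Cad and Myc in every comparison. It added the 4 largest differences in each direction for Th1 minus Th2, for time and for each retrovirus time against siRNA, 3 for Trpm4, and up to 3 genes of each other list. Alternatives were other scalings, pseudocounts of 1 and 64, filters, eBayes settings, averaged probe sets, no block and left-out pairs.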

Additional observations from a re-analysis of the deposited data

Results flagged for a closer look

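The change from 4 h to 12 h differed between Th1 and Th2 cells in 22 of 42 genes by limma's test of the difference itself, where 38.2% of all probe sets differed. The highest was Imp3 at 2.12 (2.14 in Th1, 0.02 in Th2) and the lowest Heatr1 at -1.82 (-1.56 in Th1, 0.27 in Th2). The 4 h arrays of Th1 have the 3′ bias (Gapdh 5.77 and 5.91) and its 12 h arrays do not (-0.08 and -0.01), while all 4 Th2 arrays have it (5.43 to 5.80), so cell type, time and bias cannot be told apart.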

How the results depend on the processing

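Counts are of the 42 genes called, out of the count in the report. A percentage in brackets is the share of everything tested in that fit that passed, in either direction. Th1 minus Th2 (17) gave 0 without the pair block (2.84%), 8 to 20 with 1 pair left out, and 10 with pairs of one kind (4.26%). Alternatives chosen after seeing the data gave 0 with only the untreated and siRNA pairs (1.08%) and 4 without the siRNA pairs (7.47%). With only the retrovirus 4 h pairs Rrs1 turned from -0.04 to 0.51. Over both cell types 12 h minus 4 h (3) gave 1 on deposited (1.84%) and on median-centred values (1.65%) and 0 with pseudocount 1 (0%). It gave 7 with probe sets averaged (4.51%), 22 without the block (20.7%), 9 with pairs of one kind (6.26%) and 0 with any pair left out. In Th2 alone (13) it gave 5 on deposited (9.08%) and on median-centred values (8.98%) and 0 with pseudocount 1 (0%). With a Th2 pair left out the median was 0.27 or 0.63. No count is given there, since the lone pair is assumed to vary like the Th1 pairs. The difference between cell types (22) gave 13 with pseudocount 1 and 11 to 24 with a pair left out. siRNA minus untreated (14) gave 10 to 30 over 11 alternatives, with 30 on deposited values (15.5%) and 29 with each array as a sample (35.8%). The share beside the lowest count is not given here. Retrovirus 4 h minus siRNA (12) gave 6 with pseudocount 64 (9.06%) and 31 with each array as a sample (59.2%). At 12 h (0) 1 passed with probe sets averaged (9%) and 13 with each array as a sample (34%). Leaving out a pair leaves fewer pairs to test, and counting each array treats arrays of one set as independent; the cause of the other changes was not tested. The Trpm4 comparisons gave 0 in every alternative run. Leaving out a pair of Trpm4 siRNA minus Thy1 siRNA leaves 1 pair and no test. The labels number no replicates; the pairs used as blocks are of treatment, time or cell type. Signals near the floor of 4 understate differences.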

Other observations

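Mycn, a relative of Myc, was at 5.43 to 6.22 in the untreated and siRNA arrays and at 11.33 to 12.42 in all 8 retrovirus arrays, vector and DN Trpm4 alike, with and without 3′ bias. Over both cell types it was higher by 6.08 at 4 h and by 5.91 at 12 h than in the siRNA arrays (limma adjusted p = 0.000792 and 0.000975). One probe set of Ncl went the opposite way over the same arrays, from 10.78 to 11.52 in the untreated and siRNA arrays to 5.16 to 6.46 in the retrovirus arrays, while the chosen probe set of Ncl was 9.75 to 12.21 there.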
